A study of Mus musculus with 6 samples.

Results

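The pentose phosphate pathway branches off glycolysis at glucose-6-phosphate. Its oxidative branch makes NADPH and ends in ribulose-5-phosphate, and its non-oxidative branch turns that sugar into ribose-5-phosphate, the start of nucleotide synthesis, or returns carbon to glycolysis as fructose-6-phosphate and glyceraldehyde-3-phosphate. Red cells depend on the NADPH of this pathway to keep glutathione reduced. The 7 genes described here encode its core enzymes and were taken by name, in a rule that uses no measured value although earlier results of these data were known: G6pdx, Pgls and Pgd of the oxidative branch, and Rpia, Rpe, Tkt and Taldo1 of the non-oxidative branch. They were 7 of the 48709 genes counted, and all 7 were among the 12722 genes with enough counts to be tested.

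The counts came from polyadenylated RNA of G1E-ER4 cells, a mouse line of immature red cell precursors that goes back to embryonic stem cells. Its GATA1 is joined to a hormone-binding part of the estradiol receptor, so that tamoxifen brings it into the nucleus and the cells differentiate. In the CHD4-APR group (3 libraries) the cells received a Tat-coupled peptide with the sequence of an aggregation-prone region of CHD4, the ATPase of the NuRD chromatin remodeling complex, and in the CTRL group (3 libraries) a Tat-coupled stretch of alanines. Each peptide was used at 10 μM, 2 h ahead of 28 h with tamoxifen, so that every library came from differentiating cells and the comparison is of one peptide with another. The study's methods give the tamoxifen concentration as nanomolar in one passage and as micromolar in another. The cells were of 1 line, the labels do not say whether the libraries came from separate cultures, and p-values measure only the spread between these libraries.

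Depth was similar in the groups, with totals of 41687482 to 49784177 counts per library for CTRL and of 41945739 to 46888804 for CHD4-APR. All 15 erythroid markers on the list were among the genes tested, and together they held 72570 to 75916 CPM (counts scaled to the library's total and its TMM factor from edgeR) with CTRL and 63825 to 67152 with CHD4-APR, where 3 passed the test as higher and 6 as lower, beside 20.4% and 17.8% of all genes tested. With each library's trend on length and GC content removed, 4 passed as higher and 3 as lower, beside 11.7% and 16.1% of all genes. Klf1 went from -0.17 to 0.02 and Tfrc from 0.26 to -0.02, and neither still passed. Gata1 went from 0.21 to 0.34 and Hbb-bs from -0.33 to -0.19, and both still passed. Of 9 myeloid and macrophage markers 3 were tested, 2 passed as lower and none as higher, the sum was 181 to 204 CPM with CTRL and 167 to 170 with CHD4-APR, and Mpo and Adgre1 had no count in any library. Of 9 megakaryocyte markers 5 were tested, 1 passed as lower and none as higher, with sums of 55.0 to 57.8 and 52.4 to 56.2 CPM, and Ppbp, Vwf and Gp1bb were among those with no count. After the correction 0 of the myeloid and 0 of the megakaryocyte markers passed. The 8 lymphoid and 6 mast cell markers each summed to at most 0.640 CPM in any library, and the 1 gene of each list that was tested did not pass. The part of these shifts in the values below was not tested, and in bulk RNA fewer cells of a type cannot be told apart from less RNA per cell.

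The bases just before the start of 4 of the genes are shown as the reference has them, for the entry enzyme of the pathway, the pair of genes that rose and the gene with the highest level. They are RefSeq sequences of GRCm38.p6, with 200 bases each, written 5′ to 3′ on the strand of the gene, and capitals mark the GC box (GGGCGG on either strand), a motif bound by Sp1-type factors. They lie at chrX:74428881-74429080 (minus strand) for G6pdx, at chr6:70792176-70792375 (minus strand) for Rpia, at chr1:66700631-66700830 (plus strand) for Rpe and at chr7:141391960-141392159 (plus strand) for Taldo1. The starts used here and in the next paragraph are those of RefSeq. They can differ from the ends of the GENCODE gene spans given further below. The G6pdx bases and some of the Rpia bases lie inside those spans, and the Taldo1 bases stop short of its span.
G6pdx: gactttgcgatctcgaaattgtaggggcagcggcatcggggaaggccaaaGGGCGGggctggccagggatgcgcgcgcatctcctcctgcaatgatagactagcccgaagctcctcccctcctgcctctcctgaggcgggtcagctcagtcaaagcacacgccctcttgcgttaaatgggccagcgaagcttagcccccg
Rpia: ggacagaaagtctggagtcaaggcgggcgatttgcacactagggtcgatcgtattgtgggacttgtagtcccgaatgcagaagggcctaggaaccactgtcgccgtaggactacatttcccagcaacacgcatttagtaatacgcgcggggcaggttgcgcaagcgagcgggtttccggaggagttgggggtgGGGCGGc
Rpe: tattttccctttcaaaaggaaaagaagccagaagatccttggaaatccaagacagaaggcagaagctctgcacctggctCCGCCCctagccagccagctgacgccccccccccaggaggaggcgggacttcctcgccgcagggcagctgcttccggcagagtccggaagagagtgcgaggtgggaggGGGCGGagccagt
Taldo1: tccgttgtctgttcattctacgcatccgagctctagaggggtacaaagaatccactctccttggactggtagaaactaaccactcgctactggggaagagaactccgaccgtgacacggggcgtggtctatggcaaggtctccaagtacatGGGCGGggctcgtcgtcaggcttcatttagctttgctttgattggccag

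Promoters from 250 bases before to 50 after the start were found for 7 of the 7 genes, and Pgd has another start further into the gene. At least 1 GC box lay in a promoter of 7 of the 7 genes, in a promoter of 10324 of the 27025 RefSeq genes, and in 35.7% of the 32851 RefSeq promoters of that length. The GC content of the promoters of the 7 genes was 51.3% at the inner start of Pgd and 56.7% to 67.3% at the others, against a median of 52.7% over all promoters. The promoters of the genes that rose and of those that fell therefore did not differ in having one. In G6pdx the box began at base -150, in Rpia at -7, in Rpe at -121 and -13, and in Taldo1 at -49, counted from the base before the start as -1. The CACC box (CCNCNCCC, either strand), bound by Klf1-type factors, was present in 6 of the 7 genes and in 49.5% of all promoters, and it can cover the same bases as a GC box. The core of the antioxidant response element (TGACNNNGC, either strand), bound by Nfe2l2, was found in 2 of the genes and in 12.4% of all promoters: in G6pdx from base -57, on the strand opposite the gene, and in Pgd at its inner start. The GATA site (AGATAA, either strand) was found in 0 of the 7 genes and in 11.2% of all promoters, and the E-box (CACGTG) in 0 and in 7.15%. The hypoxia response element core (ACGTG, either strand) was in 1 of them, G6pdx, and in 19.6% of all promoters. These are matches of letters in a short window and say nothing of which factor bound there.

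All 3 genes of the oxidative branch fell with CHD4-APR, by 11.9% to 13.7%, as did the 2 transferase genes Tkt and Taldo1, by 9.38% and 11%. The genes of both pentose phosphate isomerases rose, Rpia by 12.7% and Rpe by 24.1%. With a correction for length and GC content, Pgd and Tkt alone kept their call. By edgeR's quasi-likelihood test with adjustment over all genes tested (FDR under 0.05), 5 of the 7 were thus lower and 2 higher, where 17.8% of all genes tested were called lower, 20.4% higher and 38.3% in either direction. In none of the 7 did the libraries of the groups overlap, which was also the case for 49.9% of all genes tested, 25.0% with CHD4-APR lower and 25.0% with CHD4-APR higher. The median log2 fold change was -0.17 over the 7 genes and -0.01 over all genes tested. Each change was small: 0 of the 7 reached 1.5-fold, and between 24.8% (for Rpe) and 60.1% (for Tkt) of all genes tested had a log2 fold change of greater size. The smallest p that an exact permutation of 3 against 3 libraries can give is 0.1, so the tests rest on the spread estimated across all genes.

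**Figure D1:**
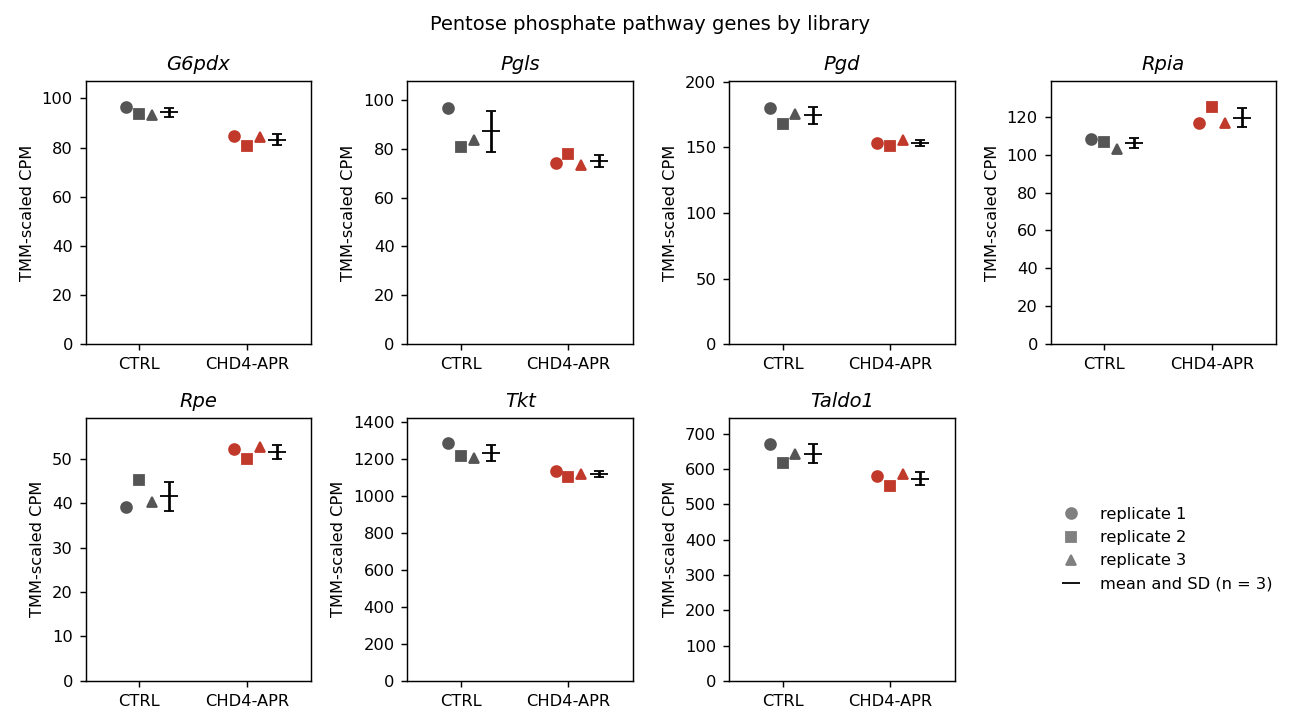
TMM-scaled CPM of the 7 pentose phosphate pathway genes in each library, with the mean and the SD of the 3 libraries of a group beside the points and each axis starting at 0. In each panel the CTRL and CHD4-APR points stand apart without overlap: G6pdx, Pgls, Pgd, Tkt and Taldo1 are lower with CHD4-APR, and Rpia and Rpe are higher.

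G6pdx encodes the enzyme of the first and committing step, which makes the first NADPH. The gene (ENSMUSG00000031400) lies on chromosome X from 74409483 to 74429194 in GRCm38. It had 96.5, 93.5 and 93.1 CPM in CTRL replicates 1 to 3, and 84.6, 80.6 and 84.1 in CHD4-APR replicates 1 to 3. The replicates were close to each other and the highest CHD4-APR library stayed below the lowest CTRL library. The mean moved from 94.4 ± 1.88 to 83.1 ± 2.20 CPM (SD, n = 3 each), a log2 fold change of -0.18 (standard error 0.045, 95% interval -0.28 to -0.088, edgeR FDR 0.00422). After the length and GC correction it was -0.10 (edgeR FDR 0.0652).

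Pgls encodes 6-phosphogluconolactonase, which opens the lactone made by that step (ENSMUSG00000031807, chromosome 8 from 71592176 to 71601092). Its CPM were 96.7, 80.9 and 83.6 with CTRL, and 74.1, 77.8 and 73.3 with CHD4-APR. The first CTRL library stood above the other 2, and the gap between the groups was narrow, 80.9 against 77.8. The log2 fold change was -0.21 (standard error 0.060, 95% interval -0.34 to -0.086, edgeR FDR 0.0103), from means of 87.1 ± 8.45 to 75.1 ± 2.42 CPM (SD, n = 3 each). Without CTRL replicate 1 it was -0.13 (edgeR FDR 0.0344), and after the length and GC correction -0.09 (edgeR FDR 0.177).

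Pgd encodes 6-phosphogluconate dehydrogenase, which makes the second NADPH and releases carbon dioxide (ENSMUSG00000028961, chromosome 4 from 149149991 to 149166771). Its CPM were 180, 168 and 175 with CTRL and 154, 151 and 155 with CHD4-APR. Every CHD4-APR library was below every CTRL library, and the gap was wider than the range of the CHD4-APR libraries. The mean moved from 174 ± 6.35 to 153 ± 2.35 CPM (SD, n = 3 each), a log2 fold change of -0.19 (standard error 0.044, 95% interval -0.28 to -0.095, edgeR FDR 0.00292).

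Rpia encodes ribose-5-phosphate isomerase, which makes the ribose used for nucleotides (ENSMUSG00000053604, chromosome 6 from 70765720 to 70792232). It had 108, 106 and 103 CPM with CTRL, and 117, 125 and 117 with CHD4-APR. The second CHD4-APR library was the highest of the 6, and the other 2 were still above all CTRL libraries. The mean rose from 106 ± 2.64 to 120 ± 4.84 CPM (SD, n = 3 each), a log2 fold change of 0.17 (standard error 0.046, 95% interval 0.075 to 0.27, edgeR FDR 0.00712). Without CHD4-APR replicate 2 the log2 fold change was 0.14 and the FDR 0.0625, and after the length and GC correction they were 0.07 and 0.286.

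Rpe encodes ribulose-5-phosphate 3-epimerase, which makes the xylulose-5-phosphate that transketolase needs (ENSMUSG00000026005, chromosome 1 from 66700831 to 66719805). Its CPM were 39.1, 45.3 and 40.2 with CTRL, and 52.2, 49.8 and 52.7 with CHD4-APR. The second replicate was the highest of the CTRL libraries and the lowest of the CHD4-APR libraries, so the groups came closest there. The mean rose from 41.5 ± 3.31 to 51.6 ± 1.53 CPM (SD, n = 3 each), a log2 fold change of 0.31 (standard error 0.060, 95% interval 0.19 to 0.44, edgeR FDR 6.87e-04). Of the 7 genes this was the change of greatest size in this fit. After the length and GC correction it was 0.11 (edgeR FDR 0.114), smaller in size than those of Pgd and Tkt.

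Tkt encodes transketolase, the thiamine-dependent enzyme that moves units of a pair of carbons between sugars (ENSMUSG00000021957, chromosome 14 from 30548359 to 30574720). It had the most counts of the 7 genes, with 1286, 1215 and 1205 CPM with CTRL and 1135, 1104 and 1120 with CHD4-APR. The groups were apart, and the first CTRL library was the highest. The mean fell from 1235 ± 44.1 to 1119 ± 15.5 CPM (SD, n = 3 each), a log2 fold change of -0.14 (standard error 0.042, 95% interval -0.23 to -0.053, edgeR FDR 0.0138). The FDR was 0.0912 without CHD4-APR replicate 2, 0.0573 without CHD4-APR replicate 3, and 0.0517 where libraries were scaled by their totals only.

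Taldo1 encodes transaldolase, which with transketolase links the pathway back to glycolysis (ENSMUSG00000025503, chromosome 7 from 141392199 to 141402968). Its CPM were 672, 617 and 642 with CTRL, and 581, 551 and 586 with CHD4-APR. In both groups the second library was the lowest, and the groups did not overlap. The mean fell from 644 ± 27.6 to 573 ± 18.8 CPM (SD, n = 3 each), a log2 fold change of -0.17 (standard error 0.045, 95% interval -0.26 to -0.073, edgeR FDR 0.00733). Without CHD4-APR replicate 2 the FDR was 0.0727, and after the length and GC correction the log2 fold change was -0.04 (edgeR FDR 0.436).

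Among the 7 genes, the direction of change went with base composition. The longest transcripts of the genes that rose had the lowest GC content of the 7, 39.2% in Rpe and 46.5% in Rpia, and those of the genes that fell had 48.5% in Pgd, 52.6% in G6pdx, 53.6% in Taldo1, 54.0% in Tkt and 57.4% in Pgls. Only 4.82% of the genes tested had a lower GC content than Rpe. With each library's trend on exonic length and GC content removed, 2 of the 7 genes passed the test as lower and 0 as higher, where 16.1% and 11.7% of the 12677 genes in that fit did. Pgd still passed, with a log2 fold change of -0.28 (95% interval -0.37 to -0.19, edgeR FDR 1.21e-04), as did Tkt, with -0.17 (95% interval -0.24 to -0.091, edgeR FDR 0.00263). The values of the other genes moved toward 0: to -0.10 for G6pdx (FDR 0.0652), -0.09 for Pgls (FDR 0.177), -0.04 for Taldo1 (FDR 0.436), 0.07 for Rpia (FDR 0.286) and 0.11 for Rpe (FDR 0.114). No gene changed its direction. Where the longest transcript stood in for exonic length in that correction, a choice made after the data were seen, Pgd alone passed, and Tkt was at -0.06 (FDR 0.236).

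**Figure D2:**
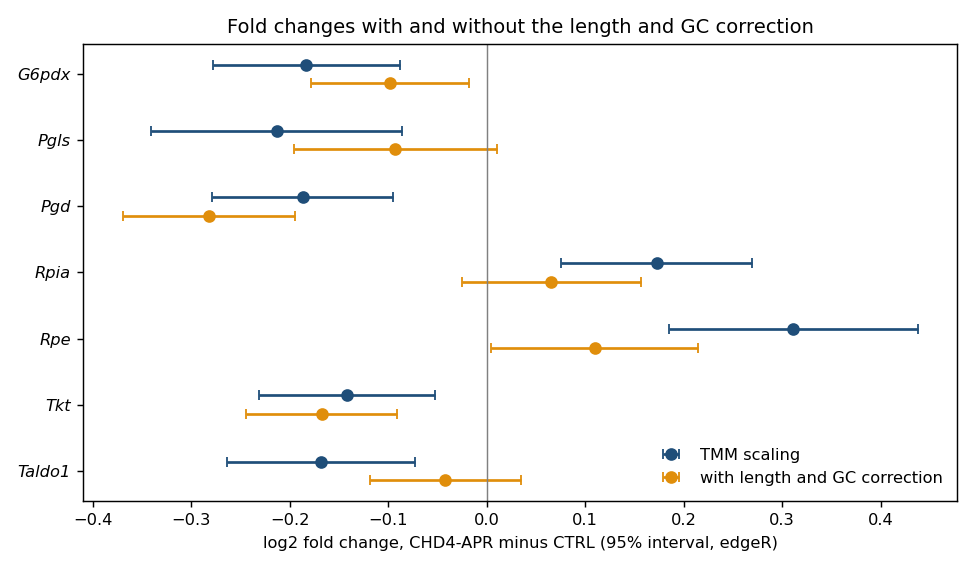
Log2 fold changes of the 7 genes, CHD4-APR minus CTRL, with their 95% intervals from edgeR, before (blue) and after (orange) each library's trend on exonic length and GC content was removed. Before the correction all 7 intervals leave out 0, and after it those of Pgls, Rpia and Taldo1 include 0, while Pgd is at -0.19 before it and -0.28 after it, and Tkt at -0.14 and -0.17.

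Some of the genes share sequence or ground with others. The libraries were made with a kit that does not mark the strand. The strand of a read therefore cannot tell apart genes that overlap on opposite strands. The strand setting of the counting and its treatment of reads with several matches are not given in the sources used here. The Rpe transcript has 19.0% of its stretches of 50 bases in common with the opposite strand of Kansl1l, a gene of 258 to 338 counts per library that overlaps it and had a log2 fold change of 0.28 (edgeR FDR 0.0291). Rpe itself had at least 1657 counts in each library. G6pdx shares 10.7% of such stretches, with the intronless copy G6pd2, which had 0 to 3 counts, and with Ikbkg on the opposite strand, which had 2450 to 3402 counts and a log2 fold change of 0.23 (edgeR FDR 0.00197), the other direction from G6pdx. Taldo1 shares 10.9% with the processed pseudogene Gm17823. Pgls overlaps Fam129c (167 to 233 counts) without sharing such a stretch. Tkt and Pgls shared 0%, Pgd 1.14% and Rpia 5.56%. The part of these overlaps in the fold changes was not tested.

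Levels of different genes were compared per kilobase of exonic length (RPKM, from the TMM-scaled CPM). The enzymes of the non-oxidative branch that move carbon units had the highest levels: Taldo1 had a mean of 296 RPKM with CTRL and 264 with CHD4-APR, and Tkt 168 and 152. G6pdx followed with 30.6 and 27.0 RPKM, and Pgd with 27.1 and 23.8. Pgls, Rpia and Rpe had 23.1, 19.8 and 13.3 RPKM with CTRL, and 19.9, 22.3 and 16.6 with CHD4-APR. Pgls and Rpia thus changed places in these levels, which carry no length and GC correction. Pgls lay between 21.5 and 25.7 RPKM with CTRL against 19.3 to 20.2 for Rpia, and between 19.5 and 20.6 with CHD4-APR against 21.8 to 23.3 for Rpia. In either group no neighbours in this order overlapped in their libraries, although Pgd and Rpia nearly met with CHD4-APR.

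The order depends in part on the length used. Divided by the longest transcript, Pgd was above G6pdx, with 47.9 against 35.6 RPKM with CTRL and 42.1 against 31.3 with CHD4-APR. The libraries of G6pdx (35.1 to 36.4 RPKM) and Pgls (30.1 to 36.0 RPKM) then overlapped with CTRL. Rpia went from 29.1 to 32.8 RPKM and passed Pgls, which went from 32.4 to 27.9, as it did with exonic length. It then also passed G6pdx, with 32.0 to 34.3 RPKM against 30.4 to 31.9 in the CHD4-APR libraries. Against all genes tested, the RPKM with CTRL lay between the 71.0th percentile for Rpe and the 98.5th for Taldo1.

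**Figure D3:**
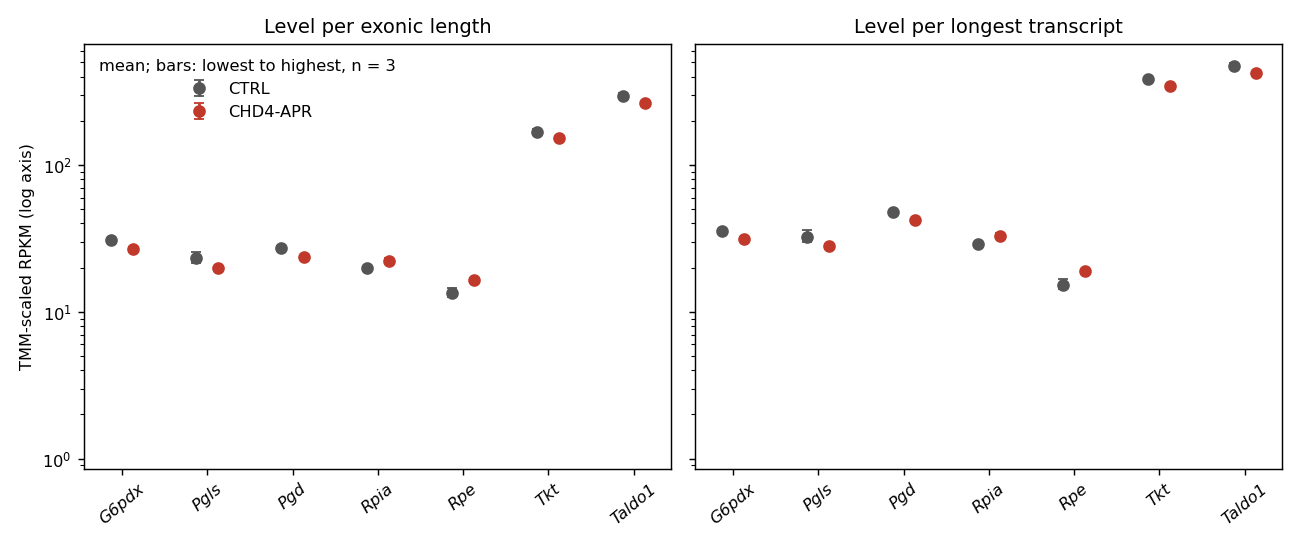
Levels of the 7 genes in RPKM on a log axis, divided by exonic length (left) or by the longest transcript (right), as the mean of 3 libraries with bars from the lowest to the highest, many of them smaller than the point. Taldo1 and Tkt stand above the other 5 genes in both panels, and Rpia passes Pgls with CHD4-APR in both.

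Summed over its genes, the oxidative branch had 80.8 ± 3.71 RPKM with CTRL and 70.7 ± 0.421 with CHD4-APR, and the non-oxidative branch 498 ± 17.4 and 455 ± 10.0 (SD, n = 3 each). Both sums were lower in every CHD4-APR library. The ratio of the oxidative to the non-oxidative sum was 0.161 to 0.164 with CTRL and 0.154 to 0.158 with CHD4-APR, a log2 difference of -0.063 that lay between -0.077 and -0.055 in the alternatives run on it, which did not include the length and GC correction. Because Tkt and Taldo1 supply most of the non-oxidative sum, this ratio hides the isomerases. The sum of Rpia and Rpe over that of Tkt and Taldo1, a ratio formed after the values were seen, was 0.0677 to 0.0766 with CTRL and 0.0914 to 0.0974 with CHD4-APR, also without that correction. In 3 ratios of single genes the groups overlapped: G6pdx to Pgd had a mean of 1.13 with CTRL and 1.14 with CHD4-APR, Tkt to Taldo1 0.567 and 0.577, and Rpia to Rpe 1.49 and 1.35. Taldo1 made up 51.3% of the RPKM of all 7 genes with CTRL and 50.2% with CHD4-APR, and Rpe 2.31% and 3.15%.

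By how their CPM varied over the 6 libraries, the genes most like the mean profile of the 7 were Nf2, Arf1, Eef2, Gm4204 and Vcp, with root-mean-square differences of 0.0075 to 0.011 on the log2 scale among 9886 genes compared. None of these 5 passed the test itself (edgeR FDR 0.217 to 0.514), since the mean profile sets falling genes against rising ones. For single genes the nearest were Slc35a4 for G6pdx, Washc1 for Pgls, Fance for Pgd, Usp22 for Rpia, Fbxo3 for Rpe, Paf1 for Tkt and Cyth2 for Taldo1.

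Of 9 side enzymes and relatives of the pathway, 4 had enough counts to be tested. Idnk, a gluconate kinase that feeds 6-phosphogluconate into the oxidative branch, fell (log2 fold change -0.17, edgeR FDR 0.0360), and the median of the 4 was -0.12. After the length and GC correction Idnk was at -0.09 (FDR 0.256), and Dera, which splits deoxyribose-5-phosphate, passed in its place with -0.25 (edgeR FDR 0.00102). Relatives of the members had few counts or none: the transketolase-like genes Tktl1 and Tktl2 had 0 counts in all 6 libraries, and H6pd, the dehydrogenase of the endoplasmic reticulum, had 2 to 15.

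Ribose-5-phosphate is turned into phosphoribosyl pyrophosphate (PRPP). Of 12 genes that make or use PRPP, 11 were tested, of which 3 rose and 2 fell, beside 20.4% and 17.8% of all genes tested, with a median log2 fold change of 0.13. After the correction 1 of the 11 passed as higher and 0 as lower, beside 11.7% and 16.1% of all genes in that fit. Prps1l3, a PRPP synthetase gene, rose from 15.3 ± 1.57 to 22.1 ± 0.638 CPM (SD, n = 3 each), a log2 fold change of 0.53 (edgeR FDR 6.79e-05) that was 0.54 after the correction (edgeR FDR 4.13e-05). It shares 19.7% of its 50-base stretches with Prps1, the main synthetase, and with Mipol1, which overlaps it, and Prps1 had a log2 fold change of -0.0031 (edgeR FDR 0.977). Ppat, which commits PRPP to purines, rose by 0.27 on the log2 scale (edgeR FDR 0.00231), with 0.14 and an FDR of 0.0507 after the correction. Nampt, of NAD salvage, rose by 0.18 (edgeR FDR 0.0204) but was at -0.06 after the correction. Prpsap1, which binds the synthetases, and Aprt, of adenine salvage, each had a log2 fold change of -0.21 (edgeR FDR 0.0148 and 0.0345), and neither passed after the correction.

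Of 12 further NADPH producers and NAD kinases, 8 were tested, of which 2 rose and none fell, where 20.4% of all genes tested were called higher and 17.8% lower, with a median log2 fold change of 0.08. Nadk2, the mitochondrial NAD kinase, rose from 88.9 ± 5.03 to 117 ± 1.68 CPM (SD, n = 3 each), by 0.39 on the log2 scale (edgeR FDR 1.53e-05) and by 0.22 after the correction (edgeR FDR 3.57e-04). Me1, the cytosolic malic enzyme, rose from a low level of 1.58 ± 0.195 to 2.23 ± 0.333 CPM (SD, n = 3 each), by 0.50 (edgeR FDR 0.0367), and had an FDR of 0.111 after the correction. Idh1, the cytosolic isocitrate dehydrogenase, had a log2 fold change of 0.08 (edgeR FDR 0.213).

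Of 15 NADPH-dependent reductases and glutathione enzymes, all tested, 5 rose and 5 fell, beside 20.4% and 17.8% of all genes tested, and the median log2 fold change was -0.07. Txnrd1, the cytosolic thioredoxin reductase, rose by 0.39 (edgeR FDR 1.30e-04), and Gclc, the catalytic subunit that starts glutathione synthesis, by 0.28 (edgeR FDR 6.74e-04). Gsr, which reduces glutathione with NADPH, rose by 0.14 (edgeR FDR 0.0285), and Cat, catalase, by 0.11 (edgeR FDR 0.0448). These 4 also passed after the correction, with 0.30, 0.26, 0.20 and 0.14, whereas Gclm, the partner subunit of Gclc, had 0.25 before it (edgeR FDR 5.18e-04) and -0.00048 after it. Blvrb, the abundant biliverdin reductase of red cells, fell from 1544 ± 125 to 1240 ± 28.9 CPM (SD, n = 3 each), with a log2 fold change of -0.32 (edgeR FDR 2.06e-04), and Por, Gss and Txn1 fell with -0.27, -0.23 and -0.23. These 4 also passed after the correction, with -0.21, -0.16, -0.31 and -0.18, and Txnrd2, which had -0.14 (edgeR FDR 0.0275), did not.

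Of 14 glycolytic enzymes that handle sugars shared with the pathway, 11 were tested, of which 8 fell and none rose, beside 17.8% and 20.4% of all genes tested, with a median log2 fold change of -0.27. Gpi1, which competes with G6pdx for glucose-6-phosphate, fell by 0.27 on the log2 scale (edgeR FDR 2.51e-04), and Tpi1 and Gapdh, whose enzymes use glyceraldehyde-3-phosphate, fell by 0.56 and 0.38. Aldoa, Pfkl, Hk1, Aldoc and Pfkm made up the rest, with log2 fold changes of -0.32 to -0.16. After the correction 7 of the 11 passed as lower, beside 16.1% of all genes in that fit: Aldoc (edgeR FDR 0.0533) and Pfkm (edgeR FDR 0.456) no longer did, and Pfkp, at -0.04 before it, passed with -0.25 (edgeR FDR 0.00129). Among 7 regulators of the pathway, all tested, 2 rose and 1 fell, together about the 38.3% called over all genes tested. Bach1, a repressor of antioxidant genes, rose from 101 ± 5.74 to 132 ± 7.66 CPM (SD, n = 3 each), by 0.39 (edgeR FDR 4.32e-05), and Myc by 0.33 from a low level (edgeR FDR 0.0486), and both passed after the correction. Sirt2, a deacetylase, fell by 0.16 (edgeR FDR 0.0215) and did not pass after it. Nfe2l2, the activator of antioxidant genes, had a log2 fold change of 0.12 (edgeR FDR 0.0562).

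**Figure D4:**
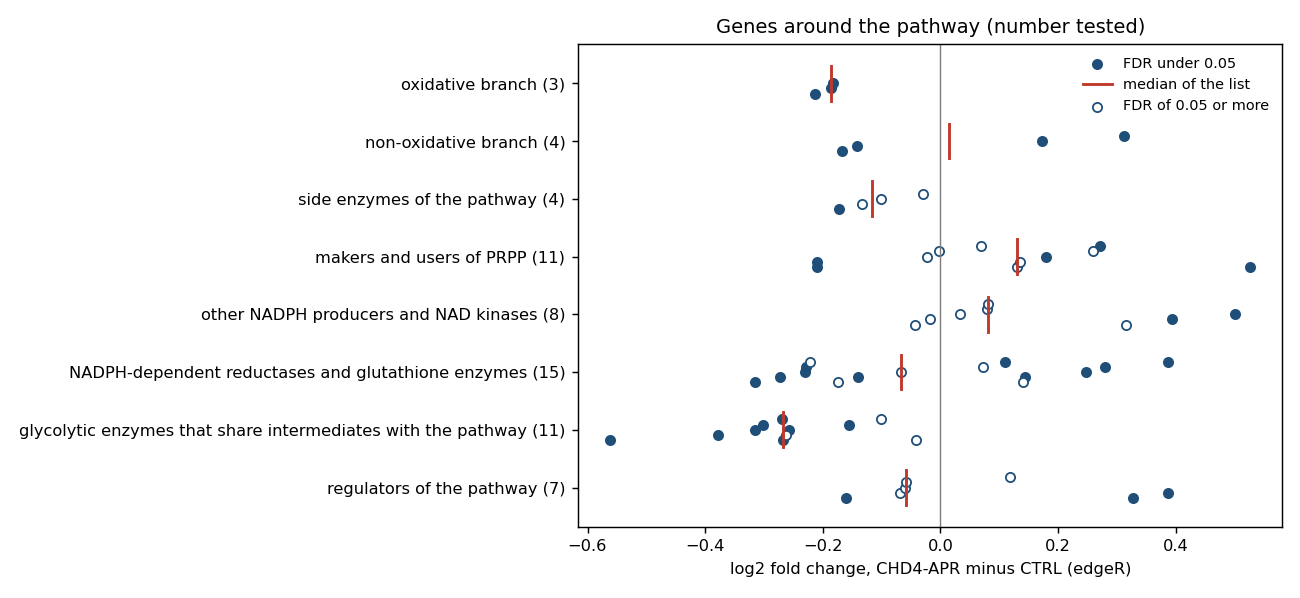
Log2 fold changes, CHD4-APR minus CTRL, of each tested gene in the branches of the pathway and in 6 lists around it, filled where the edgeR FDR was under 0.05, with a red line at the median of each list and the number tested in brackets. The 3 genes of the oxidative branch lie together at -0.21 to -0.18, the non-oxidative branch is split between -0.17 and 0.31, and the 11 glycolytic enzymes all lie below 0.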

How the data were processed

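RNA-seq libraries of mouse G1E-ER4 cells, 3 CTRL and 3 CHD4-APR, were made with a TruSeq kit that does not mark the strand. The authors trimmed reads with Cutadapt, aligned them with STAR 2.7.10a to GRCm38 and counted them per gene with featureCounts, and the deposited values are raw counts, not normalized. Another 2 columns beside them match no sample and were not used. Counting error is small at these depths, so the spread between libraries sets the precision.

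Genes passed edgeR's filterByExpr and were scaled by TMM and compared by the quasi-likelihood F-test of edgeR 4.0.16 (R 4.3.3, limma 3.58.1), with Benjamini-Hochberg adjustment over all genes and a threshold of 0.05. Each standard error is the log2 fold change divided by the root of F. GENCODE M21 gave symbols for 48349 of 48709 identifiers, exonic lengths and the GC content of the longest transcript. For the length and GC correction, each gene's log2 CPM was taken as its deviation from its mean over the 6 libraries. Natural splines with 5 degrees of freedom, on length and on GC content, were fitted to these deviations in each library. The fits, added to the log of the scaled library size, were passed to edgeR as offsets. Promoters came from RefSeq.

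The members, the gene lists and the tests were chosen with earlier results of these data known. All 7 members and each list gene with an FDR under 0.05 could be named, together with the genes nearest in profile, and other genes named (Prps1, Idh1, Dera, Nfe2l2 and those at 0 or near 0) were chosen after their values were seen. The alternatives were DESeq2 1.42.0, limma-voom, other scalings and filters, protein-coding genes alone, removal of hemoglobin genes, the length and GC correction, a replicate block, an FDR of 0.01 and leaving out each library. The procedures were tested on simulated data. Replicates differed by more than sampling noise (chi-square per degree of freedom 4.61 to 15.5).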

Additional observations from a re-analysis of the deposited data

How the results depend on the processing

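All 7 pentose phosphate genes kept their direction in each of the 19 alternatives, and Pgd kept an FDR under 0.05 in every one, with log2 fold changes between -0.28 and -0.14. DESeq2 and limma-voom called the same numbers as edgeR, 5 lower and 2 higher. The length and GC correction left 0 higher and 2 lower calls among the 7, 0 and 1 where it used the longest transcript, and 3 lower calls passed at an FDR of 0.01. Leaving out each library in turn gave 1 to 2 higher and 3 to 5 lower calls, and the smallest numbers, 1 and 3, came without CHD4-APR replicate 2. Over all genes, 3171 passed under the correction with the longest transcript, of which 1346 were higher, and the correction with exonic length left 1480 higher and 2046 lower against 2601 and 2270 without it. With libraries scaled by their totals alone 2959 were higher and 1474 lower, and at an FDR of 0.01 1308 were lower. Without each library in turn, 3703 to 4928 genes passed, of which 2175 to 2613 were higher and 1528 to 2315 lower. The cause of these shifts was not tested.

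The replicate numbers were not shown to pair the libraries: the deviations of same-numbered libraries correlated at 0.0697, 0.0552 and -0.0350, and 4 of 6 libraries correlated best with their own number. With the replicate block, 5214 genes passed and the calls among the 7 were again 2 higher and 5 lower. With the replicate block and the length and GC correction together 4056 passed, 1683 of them higher, and among the 7 there were 0 higher and 3 lower calls.

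For the 29 other list genes with an FDR under 0.05, cell type markers not included, 459 of 551 values kept direction and side of the threshold, 85 lost the call and 7 changed direction. These were Aprt, at 0.0094 under the correction with the longest transcript, and Nampt and Gclm, at -0.063 and -0.00048 under the correction, -0.062 and -0.00041 with the block as well, and -0.11 and -0.065 with the longest transcript.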

Other observations

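Idh2, the mitochondrial isocitrate dehydrogenase and another source of NADPH, had 0 counts in 5 of the 6 libraries and 1 in CTRL replicate 1. In these libraries 3 counts correspond to 0.0603 to 0.0720 CPM when scaled to the library's total alone. Idh1, its cytosolic relative, had 137 ± 5.25 CPM with CTRL and 145 ± 7.18 with CHD4-APR (SD, n = 3 each). The protein-coding genes on either side of Idh2 on chromosome 7 were counted in all 6 libraries, Zfp710 with 743 to 902 counts and Sema4b with 1038 to 1567.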
